A study of Mus musculus with 16 samples.

Results

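The regions described here were stretches of open chromatin of fibroblasts that dropped out of the peak list of day 4 of chemical reprogramming and stood again in the list of day 6. They were chosen by peak coverage and place alone: each overlapped a peak at day 0, day 2 and day 6, overlapped none at day 4, day 8, day 10, day 12 or in the reprogrammed cells (iPSC), and lay more than 1 kb from both ends of every protein-coding gene. There were 5396 such regions among 165616 merged regions (3.26%, 95% interval 3.17 to 3.34). They made up 3.66% of the 147481 regions beyond 1 kb of a gene end (here called distal) and 14.6% of the 37014 distal regions of day 0. Another 220 regions had the same coverage but lay near a gene end.

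ATAC-seq, in which the Tn5 transposase cuts and tags accessible DNA, was run on 16 mouse samples, a pair for each of 8 stages. All came from mouse embryonic fibroblasts (MEF) of the strain labelled 129XOG2, taken at E13.5, and the authors deposited 1 peak list per stage. Day 0 cells were MEF, for which the labels give a medium with fetal bovine serum and, for the cells put into reprogramming, passages 1 to 3. Cells of days 2 to 12 were reprogramming intermediates in a medium whose composition the labels do not give, and which was replaced daily between days 4 and 8 and every 2 days otherwise. The iPSC were grown on feeder cells in a medium with the supplements N2 and B27, mLIF, CHIR99021 and PD0325901. MEF cultures are known to hold several kinds of cell, a list pools all cells collected, and fewer open cells cannot be told apart from less open chromatin per cell. As a check of the day 0 label over whole marker lists, a peak covered an end of 24 of 27 matrix genes and 15 of 18 fibroblast receptor genes at day 0, against 17 and 13 in iPSC, and of 9 of 24 pluripotency genes and 8 of 21 epithelial genes, against 19 and 18 in iPSC. The list of mesenchymal transcription factors went the other way, with an end covered in 17 of 26 genes at day 0 and 22 in iPSC. Also against the day 0 label, ends of 10 of 12 spermatid genes were covered at day 0, and of 1 of 12 in each list from day 2 to day 12. The part of this signal in the results was not tested, and none of the regions described here was assigned to a spermatid gene. Without replicate lists there is no spread between samples: no test between stages was possible, every stage difference below is between single lists, and intervals are exact 95% binomial intervals that cover counting error only.

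Distal open regions of a fibroblast are mostly enhancers, sequences that bind transcription factors and raise the activity of genes at a distance. In mesenchymal cells many of them hold sites for AP-1 (dimers of FOS and JUN proteins, which recognise TGANTCA), for the TEAD factors that act with YAP, for RUNX and for C/EBP proteins. In reprogramming, the enhancers of the starting cell lose accessibility as their factors are lost or drawn elsewhere, usually before the pluripotency network is complete.

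Some of the regions held an annotated transcription start away from the gene's outer ends, which gives part of their sequence in RefSeq (GRCm38.p6). Of 32851 promoter windows (250 bases before to 50 after a start), 44 lay wholly inside 41 of the regions, 29 at starts of lncRNA genes and 12 at starts inside the span of protein-coding genes when 1 window per region was counted. The windows below show DNA inside these regions and were chosen after their values were seen. Whether a summit lies in a window was not read. Per1, a circadian clock gene, had the highest lowest level of the 12 coding genes, and Il1r1, which encodes a receptor of interleukin 1, is shown for its lower level at each later day. Gm20744, Gm51485 and Pacsin2, a gene of membrane curvature, are among the 8 of 41 with an AP-1 match. Each is written 5′ to 3′ on the strand of the gene, and capitals mark every AP-1 match (TGANTCA on either strand).
Per1, chr11:69099902-69100201, plus strand: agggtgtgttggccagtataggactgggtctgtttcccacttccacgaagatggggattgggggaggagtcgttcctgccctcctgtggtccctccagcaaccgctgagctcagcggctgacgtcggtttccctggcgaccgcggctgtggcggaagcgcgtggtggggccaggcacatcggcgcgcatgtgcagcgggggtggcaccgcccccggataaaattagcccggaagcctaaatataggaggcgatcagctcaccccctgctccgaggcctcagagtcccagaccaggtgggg
Il1r1, chr1:40224830-40225129, plus strand: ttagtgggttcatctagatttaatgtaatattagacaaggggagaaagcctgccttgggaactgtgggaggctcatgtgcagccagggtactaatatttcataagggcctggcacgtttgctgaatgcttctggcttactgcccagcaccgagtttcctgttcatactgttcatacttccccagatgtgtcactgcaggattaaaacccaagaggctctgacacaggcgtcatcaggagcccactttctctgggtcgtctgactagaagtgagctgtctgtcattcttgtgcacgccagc
Gm20744, chr7:82070137-82070436, plus strand: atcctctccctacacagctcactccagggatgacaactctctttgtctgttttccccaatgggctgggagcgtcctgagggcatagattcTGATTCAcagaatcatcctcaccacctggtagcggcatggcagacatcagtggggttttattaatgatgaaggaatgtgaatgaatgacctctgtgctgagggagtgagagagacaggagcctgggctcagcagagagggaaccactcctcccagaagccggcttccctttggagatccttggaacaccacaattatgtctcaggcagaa
Gm51485, chr7:65802301-65802600, minus strand: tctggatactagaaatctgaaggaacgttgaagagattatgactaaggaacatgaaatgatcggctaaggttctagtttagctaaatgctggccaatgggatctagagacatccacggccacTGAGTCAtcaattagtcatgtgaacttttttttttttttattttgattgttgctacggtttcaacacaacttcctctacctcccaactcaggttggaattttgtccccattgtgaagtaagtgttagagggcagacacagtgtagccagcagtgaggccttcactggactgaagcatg
Pacsin2, chr15:83447831-83448130, minus strand: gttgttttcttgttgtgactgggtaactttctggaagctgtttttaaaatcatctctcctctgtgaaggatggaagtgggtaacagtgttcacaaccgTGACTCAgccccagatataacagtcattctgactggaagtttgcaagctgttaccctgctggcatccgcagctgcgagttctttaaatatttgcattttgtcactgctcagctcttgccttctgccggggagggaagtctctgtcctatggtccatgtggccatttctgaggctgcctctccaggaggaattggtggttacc

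The Per1 and Il1r1 windows held no AP-1 match. At the Per1 region the summit pileup, the number of fragments stacked at the peak's highest point, was 52, 58 and 45 at days 0, 2 and 6. At the Il1r1 region it was 72, 65 and 26. The lists differ in depth, so a level below is a summit pileup divided by the background pileup of its own list (1.96, 3.08, 1.23 and 2.12 for the lists of days 0, 2, 4 and 6). On that scale Per1 had 26.6, 18.8 and 21.3 at days 0, 2 and 6, with day 6 between the other two, whereas Il1r1 had 36.8, 21.1 and 12.3 and was lower at each later day.

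A microRNA gene lay in another of the regions. Mir206, known for its expression in skeletal muscle, sat at chr1:20679010-20679082 (plus strand) in a region of 1168 bp, with its hairpin 872 bp from the day 0 summit. Its mature arms are shown with the seed (bases 2 to 8) in capitals.
mmu-miR-206-5p: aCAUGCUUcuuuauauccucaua
mmu-miR-206-3p: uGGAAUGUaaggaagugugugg

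The region at Mir206 had summit pileups of 43, 59 and 34 at days 0, 2 and 6. The levels were 22.0, 19.2 and 16.1. Mir7020, the other microRNA gene in the set, lay in a weaker region with pileups of 17, 19 and 12.

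The day 4 gap was common among distal regions of the first 6 days. Counting distal regions that no list after day 6 covered, 5396 lacked day 4 alone and 4829 were covered at all of days 0, 2, 4 and 6 (here called held regions). Only 521 lacked day 6 alone and 87 lacked day 2 alone, while 5820 lacked day 0 alone, that is, were first covered at day 2. Another 3648 were covered at days 0 and 2 and lacked both day 4 and day 6, so loss at day 4 without return was common too. A wider count, with no condition on later lists, gave 7903 distal regions that lacked day 4 among 19690 covered at days 0, 2 and 6 (40.1%). Near gene ends the same gap was seen in 933 of 10211 regions covered at those days. The day 4 list held 41695 peaks, against 83022 at day 2 and 57924 at day 6, and its background pileup was the lowest of these lists. When the lists were cut to peaks whose pileup, scaled to the day 4 background, reached the lowest pileup called at day 4, 4852 regions lacked day 4 alone, 4679 were held and 539 lacked day 6 alone. With all lists cut to the length of the shortest, the order turned, with 2122 regions that lacked day 4 alone and 2954 held.

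**Figure D1:**
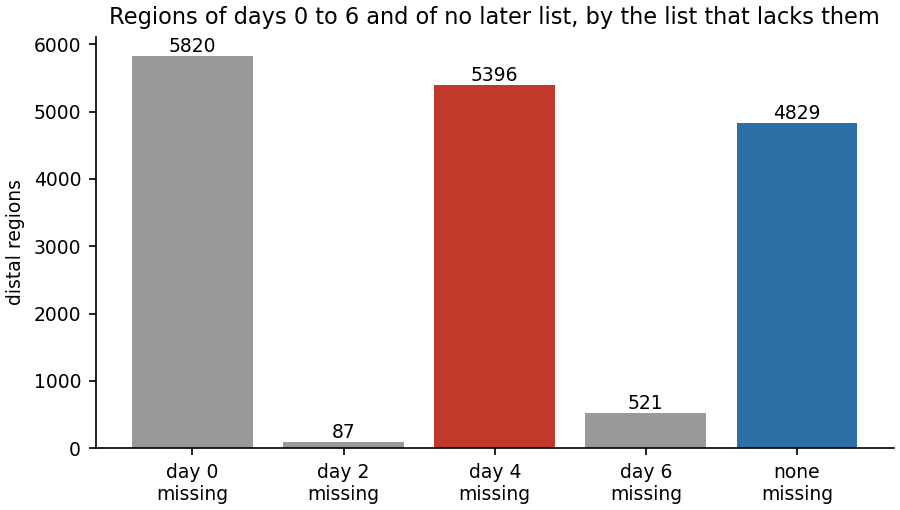
Number of distal regions covered in the lists of days 0 to 6 and in no later list, by which of the 4 lists lacks them (y axis, regions). The 5396 regions that lack day 4 alone outnumber those that lack day 6 alone (521) or day 2 alone (87) and lie close to the 4829 that lack none.

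The regions missing at day 4 were already weaker than held regions at day 2, although both were about as high at day 0. The median level was 11.8, 12.01 and 8.97 at days 0, 2 and 6 in the missing regions, and 12.8, 19.5 and 12.3 in the held ones. The class is fixed by day 4 alone, since both sets were covered at the other 3 days, so the levels are a description of single lists and not a test. The median log2 ratio of day 2 over day 0 was -0.026 in the missing regions and 0.48 in the held ones. A rise of over 1 log2 unit was seen in 9.43% of the missing regions (509 of 5396) and 27.2% of the held ones (1313 of 4829), and a drop of that size in 11.1% and 3.13%.

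The same held at like levels of day 0. Among regions with a day 0 level under 8 the median at day 2 was 9.09 in the 1223 missing regions and 15.6 in the 994 held ones. Among those with a day 0 level of 18 and over it was 15.9 in 1197 missing regions and 25.3 in 1446 held ones. Read the other way, 79.9% (76.8 to 82.7) of early distal regions whose level had dropped by over 1 log2 unit at day 2 lacked day 4, against 27.9% (25.9 to 30.1) of those that had gained as much. The median log2 ratios of day 2 over day 0 in missing and held regions were 0.011 and 0.48 under the scaled lists, 0.034 and 0.38 with the better-scored 50% of each list, and 0.22 and 0.46 with lists cut to the shortest, so the gap between the sets was smaller in the last 2 settings.

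**Figure D2:**
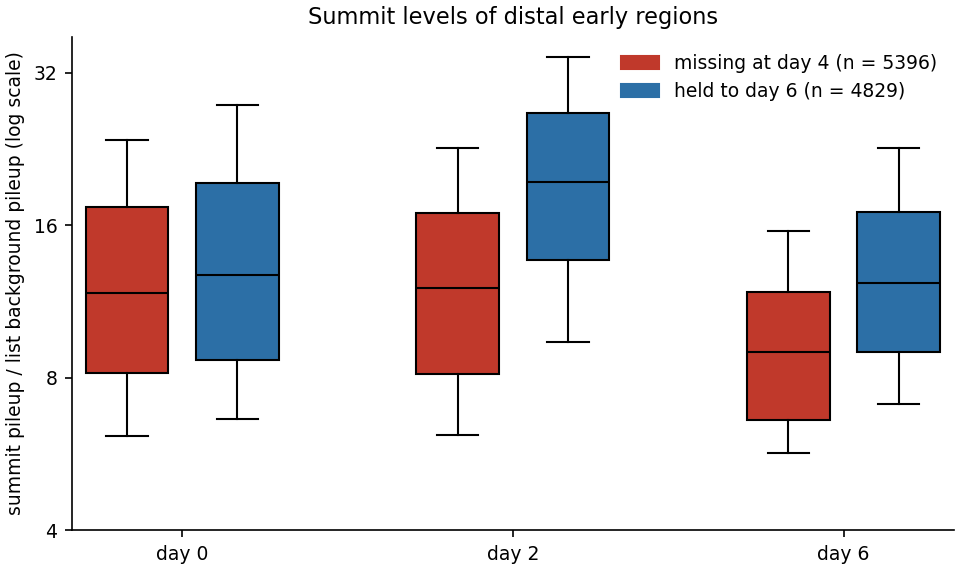
Summit pileup over the list's background pileup (y axis, log scale) at days 0, 2 and 6 for the 5396 regions missing at day 4 and the 4829 held regions. Boxes span the quartiles with the median as a line, and whiskers reach the lowest and highest deciles; the boxes lie at like heights at day 0, while at day 2 the medians are 12.01 and 19.5.

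At day 6 the median level was below that of both earlier days in the missing and in the held regions. The median log2 ratio of day 6 over day 0 was -0.40 in the missing regions and -0.11 in the held ones, while that of day 6 over day 2 was -0.38 and -0.59. Day 6 was the lowest of the 3 lists in 56.3% (55.0 to 57.6) of the missing regions and the highest in 9.95% (9.17 to 10.8), and in held regions in 49.0% (47.5 to 50.4) and 8.68% (7.90 to 9.51). Day 0 was the highest in 46.4% and day 2 in 43.7%. In held regions day 2 was the highest in 66.9% and day 0 in 24.4%. The missing regions were also narrower, with a median merged width of 875 bp against 1071 bp, though a day 4 peak can widen a held region. The 3 summits fell within 100 bp of each other in 52.3% (50.9 to 53.6) of the missing and 51.0% (49.6 to 52.5) of the held regions. A single peak in each of the 3 lists was found in 96.6% of the missing and 95.4% of the held regions.

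How far the missing regions lay above what day 4 could call was read from their pileups, scaled to the day 4 background. The lowest pileup called at day 4 was 6. The highest of the 3 scaled pileups was under 6 in 4 of 5396 regions, the middle one in 72 and the lowest in 552 (10.2%, 9.43 to 11.1). In 1548 regions (28.7%, 27.5 to 29.9) even the lowest of the 3 was at least 12, and in 380 it was at least 18. Against a limit raised to fit the local background of each region, 38 had all 3 pileups below it, 2183 (40.5%) had at least 1 below it, and 198 (3.67%) had every one at 2 times the limit or more. Held regions, which day 4 did call, had the lowest scaled pileup under 6 in 3.54% and at least 12 in 51.8%. Of them, 1392 of 4829 (28.8%) had at least 1 pileup below the local limit, and 10.8% had every one at 2 times that limit or more. A summit pileup of a called peak is the highest of many positions, so a scaled value of 6 does not mean that a call was assured.

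Coverage at day 4 differed with the kind of region as well as with the level. Of regions covered at days 0, 2 and 6 whose lowest scaled pileup was 18 and over, day 4 covered 73.6% (71.3 to 75.9) of the distal regions with no later list, 91.6% (90.5 to 92.6) of the distal regions with a later list and 98.7% (98.3 to 98.95) of those near gene ends. With 9 to 12 the shares were 42.8%, 64.3% and 80.7%. Over all levels they were 47.2%, 73.5% and 90.9%. The class of 18 and over has no upper bound, so levels can differ between the kinds inside it. It held 1440 of 10225, 2839 of 9465 and 5291 of 10211 regions of the 3 kinds. The shares rose with the level in each of the 3 kinds, and at each of these levels the distal early regions were lowest. Under the scaled lists the overall shares were 49.1% for distal early regions and 91.4% near gene ends. Widths and local backgrounds also differ between these kinds, and their part was not tested. The distal early regions were moreover chosen by absence from the later lists. Those of days 8, 10 and 12 had background pileups of 0.68, 0.97 and 0.25, below the 1.23 of day 4. Lower day 4 coverage of this kind can thus be partly built in by the choice, which was not tested either.

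**Figure D3:**
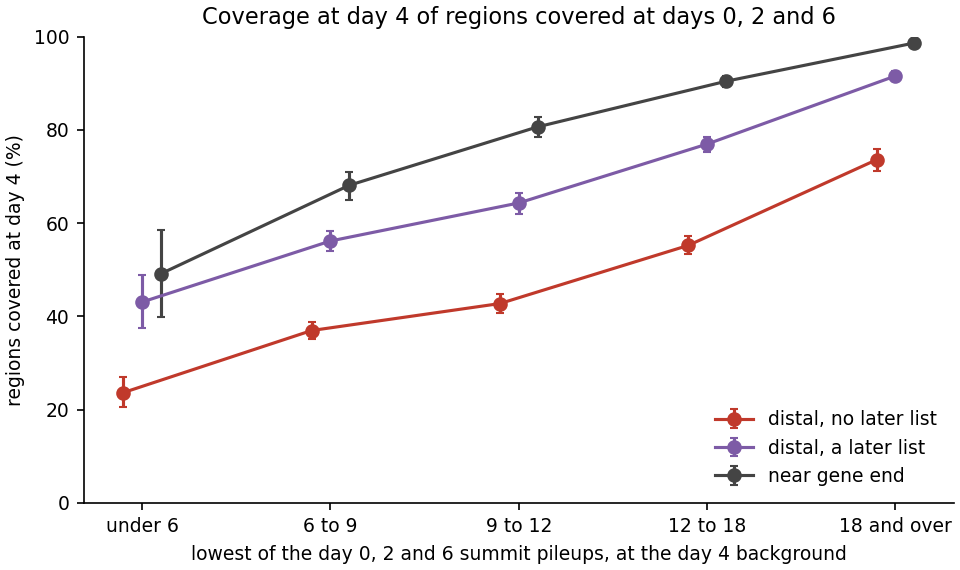
Share of regions covered at day 4 (y axis, percent) by the lowest of their day 0, 2 and 6 summit pileups at the day 4 background (x axis, fragments), for 3 kinds of region covered at days 0, 2 and 6; bars are exact 95% binomial intervals. Distal regions with no later list lie below both other kinds at every level, with 73.6%, 91.6% and 98.7% in the highest class, which has no upper bound.

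The local background was raised at the 10 regions with the highest lowest level, and the pileup that day 4 would need there, at the highest of the 3 scaled local backgrounds, was 12 to 25 fragments. Their lowest scaled pileups were 1.44 to 2.95 times that local limit, and 6 of the 10 reached 2 times. The first lay on chromosome 11 (113729943 to 113730354, mm10) inside Cdc42ep4, an effector of the GTPase Cdc42, with pileups of 111, 179 and 85 at days 0, 2 and 6. The authors' folds over the local background were 7.53, 5.95 and 6.97, and that background, recovered from fold and p-value, was 13.9, 29.3 and 11.3 fragments. The second lay 1556 bp outside Prss56, a serine protease gene (chromosome 1, 87180469 to 87181546), with 101, 133 and 69. The third lay inside Cers6, which encodes a ceramide synthase (chromosome 2, 68982997 to 68983964), with 71, 104 and 66. The lowest scaled pileups of these 3 regions were 49.4, 40.1 and 38.3 fragments, against local limits of 25, 15 and 13.

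The fourth had Thy1 as its nearest protein-coding gene at 97.3 kb, a fibroblast surface marker lost early in reprogramming (chromosome 9, 43944797 to 43946090). Its pileups were 96, 120 and 65, and a day 4 peak stood 870 bp away. Regions inside Dscam (61, 133 and 61), a neural adhesion gene, and inside Cobll1 (70, 126 and 59) followed. Inside Nedd4l, a ubiquitin ligase gene on chromosome 18 (64970943 to 64972601), the pileups were 71, 81 and 68. The others were at Plekhf1 (59, 85 and 68), Ccdc102a (110, 143 and 57) and Sri (57, 113 and 55). On the level scale, Plekhf1 alone among the 10 was highest at day 6, with 30.1, 27.6 and 32.1.

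At the other end, 2 regions shared the lowest level, both at day 2. One lay inside Trerf1 (chromosome 17, 47311299 to 47311819) with 17 fragments at day 0, 10 at day 2, the lowest pileup that day 2 called, and 18 at day 6. The other, on X and 26.7 kb from 4930519F16Rik, had 14, 10 and 9. The member closest to a gene end was 1003 bp away, inside Ptprn (pileups 75, 56 and 30), and the nearest region left out by that window lay at 980 bp (113, 86 and 17). A single region touched a day 4 peak without sharing a base with it, on chromosome 4 (92574235 to 92575126), with 13, 40 and 21 fragments. The held region with the shortest day 4 overlap, near Rab26, shared 218 bp (14.7% of its width), with 17, 35 and 18.

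The regions were spread thinly over genes. Of them, 2778 (51.5%, 50.1 to 52.8) lay wholly inside a gene span, against 49.3% (47.9 to 50.7) of held regions and 51.6% (51.1 to 52.2) of all distal day 0 regions. Within 100 kb, 4528 could be assigned to 3115 nearest genes, 893 genes had at least 2 and 314 at least 3. Their share of distal day 0 regions ran from 12.8% on chromosome 17 to 16% on chromosome 14 among the autosomes and was 14.8% on X. The median distance to the nearest day 4 peak outside the region was 14.1 kb, against 15.5 kb for held regions and 14.6 kb for all distal day 0 regions.

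The genes with the most were long ones. Babam2, a subunit of the BRCA1-A and BRISC complexes, had 9 of its 15 distal day 0 regions missing at day 4 and 2 held. Its pileups at day 0 ran from 9 to 30 and at day 6 from 12 to 45. Macrod2, an ADP-ribose hydrolase gene, had 9 of 22 and 1 held. There were 7 genes with 7 each. Efna5, an ephrin ligand, had 7 of 17 and Wwox 7 of 19, each with 1 held. Thsd4, a microfibril protein, had 7 of 16 and Prkg1, the cGMP-dependent kinase, 7 of 29, each with 2 held. Ext1, a heparan sulfate polymerase, had 7 of 21 with 3 held, Dlg2 7 of 27 with 6 held, and Lpp, a focal adhesion protein, 7 of 36 with 5 held. Stx8, Ust and Dlgap2 had 6 each, with 2, 3 and 1 held. Over all distal day 0 regions the missing share was 14.6%, and genes ranked by their count lie above it by choice. The gene span was between 241 and 1998 kb in these 12, and a long span gathers more regions of every kind.

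Most of the regions had no near neighbour of their kind. With gaps of up to 20 kb, 871 (16.1%, 15.2 to 17.2) stood in runs of at least 2, and 55 runs held 3 or more. Such a share depends on the number of regions in a set, and it was not counted for held regions. A run of 5 regions, the highest number in a run, lay over 43.9 kb of chromosome 13 with no protein-coding gene within 100 kb, with neither a held region nor a day 4 peak inside. Runs of 4 with no day 4 peak inside lay at Tom1l2, at Pcsk6 and Tm2d3 (where the Gm51485 window above lies), at Dnah17 and Pgs1, and on chromosome 15 away from genes. Hdac5, a histone deacetylase gene, had a run of 4 with 1 day 4 peak inside.

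Genes of fibroblasts had both missing and held regions. In the list of fibroblast surface receptors, 23 of 105 distal day 0 regions were missing at day 4 (21.9%, 14.4 to 31.0) and 14 were held. A missing region was found at 15 of 18 genes, and 5 of these 15 had no held region. Of all 21887 genes, 3115 had a missing region, and 1885 of those 3115 had no held region. Cd44, the hyaluronan receptor, had 3, of which the one inside the gene at chromosome 2, 102872666 to 102874399, had pileups of 71, 77 and 27. The adhesion genes Cdh11 and Cdh2 had 2 each. Collagen and matrix genes had 30 of 166 (18.1%, 12.5 to 24.8), at 18 of 27 genes, and 26 held; 8 of the 18 had no held region. Fbn1, which encodes fibrillin, had 4 of 14, with pileup ranges of 20 to 57, 38 to 70 and 16 to 37 for days 0, 2 and 6, and Fbn2, Col5a1 and Thbs2 had 3 each. Over all genes the share was 14.3% (13.9 to 14.7), which lay inside the interval of the matrix list and just under that of the receptor list. These lists were made with earlier results of these data known, and the differences were not tested.

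In the TGF-beta pathway, whose ligands hold cells in a mesenchymal state, 22 of 111 distal day 0 regions were missing at day 4 (19.8%, 12.9 to 28.5). Smad3, the signal transducer, had 4 of 14. The one 80890 bp from the gene had pileups of 56, 50 and 24, and the one in the gene at chromosome 9, 63701875 to 63703088, had 23, 49 and 20. The latent binding protein genes Ltbp1 and Ltbp2 had 5 of 22 and 3 of 7. The strongest of those at Ltbp1 had pileups of 68, 75 and 56 and levels of 34.7, 24.3 and 26.5, so day 6 stood above day 2 and below day 0. The retinoid pathway had 13 of 52 (25%, 14.0 to 38.9), of which Rxra, a nuclear receptor that pairs with retinoic acid receptors, had 5 of 16 and Rarb 4 of 16. With assignment within 20 kb in place of 100 kb, 8 of the 13 remained assigned to a retinoid gene.

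**Figure D4:**
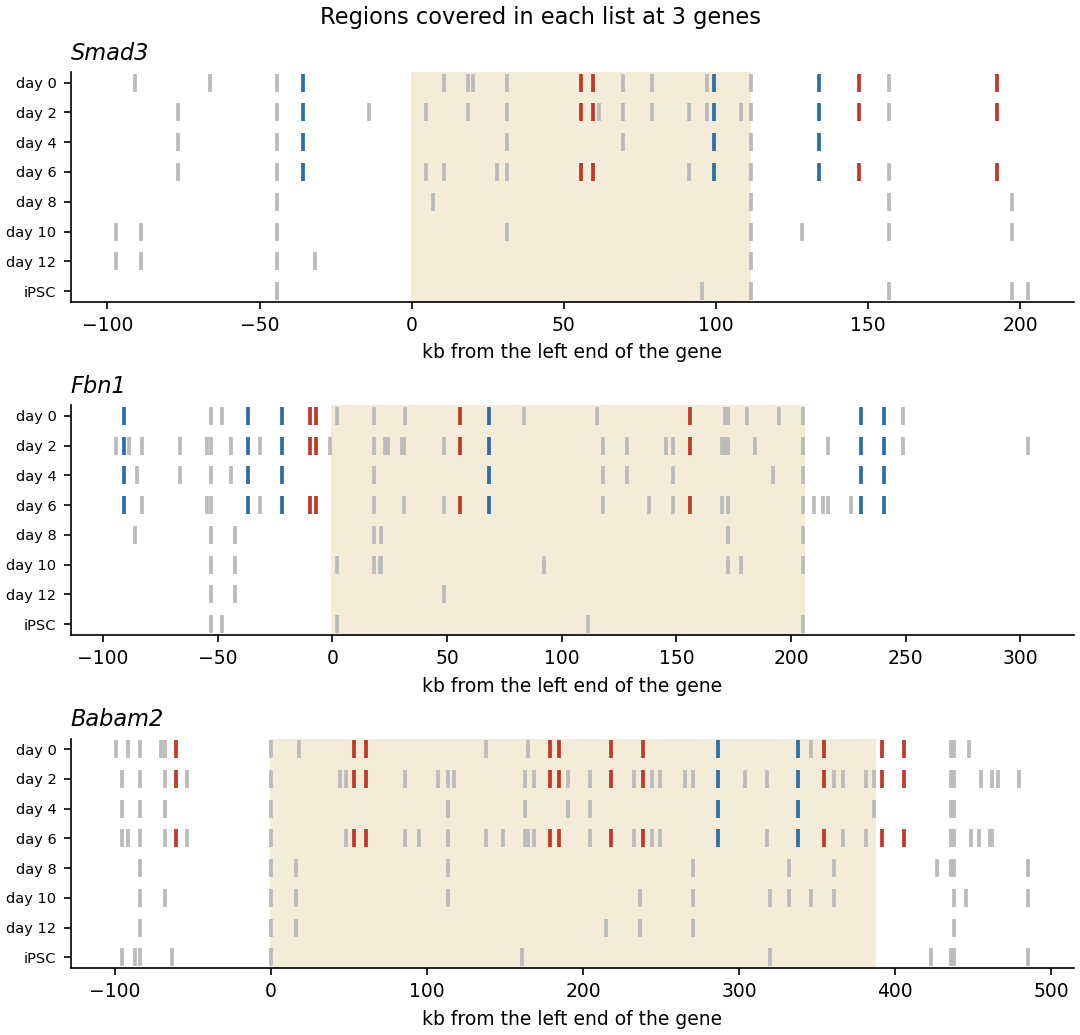
Regions covered in each of the 8 lists (rows, from day 0 to iPSC) at Smad3, Fbn1 and Babam2, by distance of the region's middle from the gene's left end (x axis, kb), within 100 kb of the gene, so that a mark can belong to a neighbouring gene. Red marks the regions missing at day 4, blue the held regions and grey all others, and the shaded band is the gene. By the choice of regions, red marks appear in the rows of days 0, 2 and 6 only. The rows of day 4 and of days 8 to iPSC hold fewer marks than that of day 2.

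Among transcription factor genes the shares lay on both sides of that over all genes. Genes of mesenchymal transcription factors had 13 of 123 (10.6%, 5.75 to 17.4) against 22 held, and none had more than 2, the number at Meis1, Meis2, Tcf4 and Zeb2. RUNX genes had 8 of 46 (17.4%), with 3 each at Runx1 and Runx2. At Runx1 the region inside the gene at chromosome 16, 92608369 to 92610028, had pileups of 53, 55 and 34. TEAD and YAP genes had 11 of 78 (14.1%), 4 of them at Tead1 and 2 at Yap1. AP-1 factor genes had 3 of 33, 2 at Jun. NFI and C/EBP genes had 3 of 62 (4.84%, 1.01 to 13.5), at Nfib and Pparg, and this interval lay below the share of all genes. Genes of contractility under SRF had 18 of 147 (12.2%), with 3 each at Mrtfa, Mrtfb and Tns1. WNT pathway genes had 11 of 73, with 2 each at Ctnnb1 and Dkk2, cytokine and growth factor genes 11 of 84, with 2 each at Igf1, Il1rl1 and Nrg1, and cell cycle inhibitors 3 of 23, 2 of them at Cdkn2b. With assignment within 20 kb the WNT count was 5, with none of the regions at Ctnnb1 and Dkk2 left, and the counts of mesenchymal factors, cytokines and AP-1 factors were 8, 7 and 1. The endothelial and blood counts given next were then 4 and 0.

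Lists of other cell types held few distal day 0 regions in all, so their shares are loosely bounded. Pluripotency genes had 3 of 38 (7.89%), one each at Otx2, Pou5f1 and Sall4, and the region 3942 bp from Pou5f1 had pileups of 44, 38 and 40. OG2 is known as a transgene with Pou5f1 regulatory sequence, and reads from the gene and from a transgene cannot be told apart in a peak list. Epithelial genes had 3 of 35 (8.57%), endothelial genes 7 of 39 (17.9%, 7.54 to 33.5) with 4 at Erg, neural genes 1 of 18, blood genes 1 of 9 and housekeeping genes 2 of 21. Muscle genes had 0 of 24, which allows a share of up to 12.5% by a floor of 3 counts (exact upper bound 14.2%), and 5 held (20.8%, against 12.4% over all genes). Spermatid genes had 0 of 12, which allows up to 25% by that floor (exact upper bound 26.5%).

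**Figure D5:**
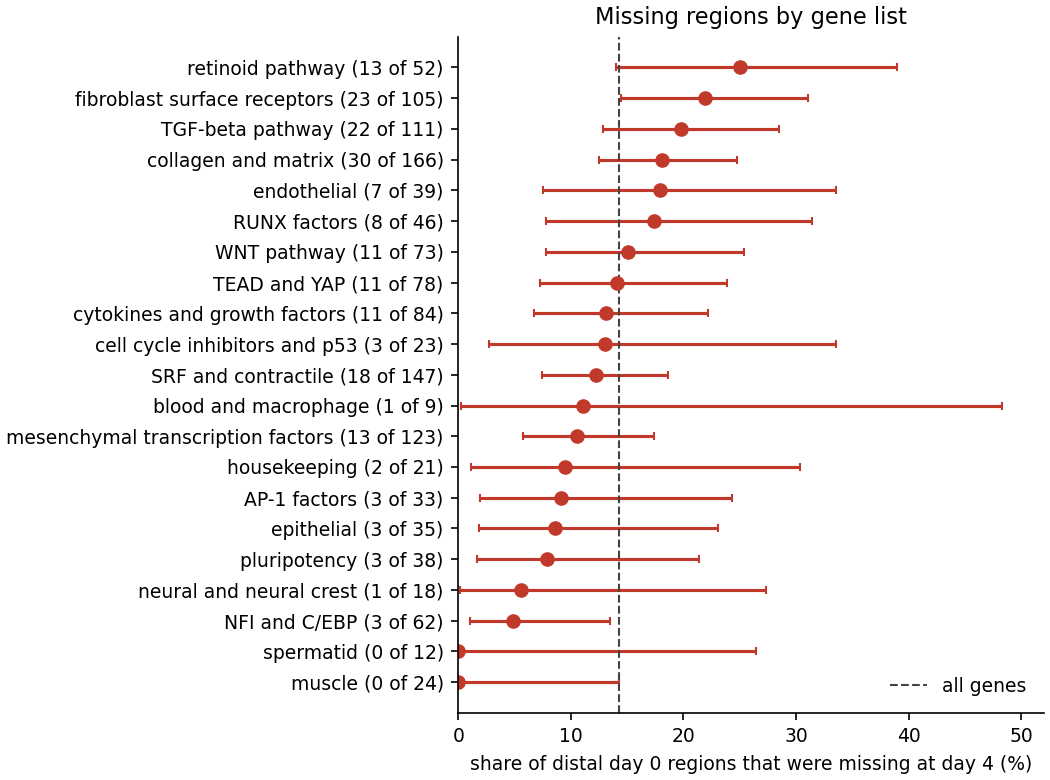
Share of distal day 0 regions that were missing at day 4 (x axis, percent) for the regions assigned to the genes of each of 21 lists, with exact 95% binomial intervals and the counts in brackets; the dashed line is the share over all genes, 14.3%. The retinoid list (25%) and fibroblast receptors (21.9%) lie highest and the intervals of most lists cross the line.

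Outer ends of the genes near the missing regions, which the choice of regions did not use, were mostly covered at day 4 itself. Of the 3115 genes with at least 1 missing region, a peak covered an end in 70.8%, 80.2%, 66.6% (64.9 to 68.2) and 68.5% (66.9 to 70.2) for days 0, 2, 4 and 6. For the 2688 genes with a held region the shares were 70.9%, 80.6%, 67.2% and 68.7%, and for all 21887 genes 55.0%, 62.2%, 51.6% and 54.5%. The 82 genes with at least 3 missing and no held region had a covered end in 62 at day 4 and 68 at day 6. Among these, Chchd3 and Gabrg3 had 5 missing regions each and no distal region covered at day 4. Cers6, Daam1, Fmn1 and Pcdh15 also had 5 missing each, with 7, 3, 12 and 20 distal regions covered at day 4. Osmr, the oncostatin M receptor gene, and Met, the receptor of hepatocyte growth factor, had 4 missing each and 3 distal regions covered at day 4. These genes were named after their values were seen. A day 4 peak within 5 kb but outside the region was found for 18.7% (17.7 to 19.8) of the missing, 12.4% (11.5 to 13.4) of the held and 16.7% (16.3 to 17.1) of all distal day 0 regions. Peaks of day 6 were nearby in 26.2%, 22.2% and 25%, so missing regions had more near peaks in that list too.

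Motifs could be read in the promoter windows alone, 1 per region, in 41 missing and 63 held regions. AP-1 (TGANTCA, both strands) was found in 8 of 41 (19.5%, 8.82 to 34.9) and 26 of 63 (41.3%, 29.01 to 54.4), against 11.2% of 1420 windows in distal day 0 regions and 7.81% of all 32851 windows. The GC box of SP and KLF factors (GGGCGG) was found in 5 of 41 (12.2%, 4.08 to 26.2) and 7 of 63 (11.1%), against 49.5% and 35.7%. RUNX (TGTGGT) had 14 of 41 (34.1%, 20.1 to 50.6) and 13 of 63 (20.6%, 11.5 to 32.7), against 16.1% and 16.8%. The ETS core GGAAGT had 15 of 41 (36.6%) and 16 of 63 (25.4%), against 23.2% of windows in distal day 0 regions. TEAD (GGAATG) had 19.5% and 25.4% against 16.7%, the E-box CAGATG 14.6% and 30.2% against 15.1%, and C/EBP (TTGCNNAA) 12.2% and 19.05% against 9.86%, so these 3 lay near the background in the missing regions. The other E-box, CAGCTG, had 13 of 41 (31.7%, 18.1 to 48.1) and 17 of 63 (27.0%), against 18.3% of windows in distal day 0 regions. The intervals of the missing and held windows overlapped for AP-1 and RUNX, and no difference was tested. These windows are starts of transcripts, a small part of the set, and say nothing of the regions without one. A match is a run of letters and not a bound site.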

How the data were processed

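ATAC-seq peak lists of 8 stages, 1 per stage for 2 samples each, were used. Any Tn5 shift of reads, and the joining of the pair of samples behind a list, are not given in the sources. According to the submitters' processing notes the tools were MACS2 2.1.2, Bowtie2 2.2.5, fastp 0.20.1, deepTools 3.4.3 and SAMtools, and the build was mm10. Each deposited peak carries a score, a fold ratio over local background, and a −log10 p-value. The score only ranked peaks for an alternative. Summit pileup and local background were recovered from the deposited fold, which adds 1 to both, and the deposited Poisson −log10 p-value, to within 0.001 (in every list, 99.998% of peaks or more). This step was tested on simulated data. Total read depth is unknown, and a list's lowest local background (background pileup) stands for it.

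Between 36 and 57 peaks per list lay outside chromosomes 1 to 19, X and Y and were left out. Peaks sharing at least 1 bp were merged. Genes are the 21887 protein-coding genes of RefSeq GRCm38.p6, and regions were assigned to the nearest within 100 kb. The members, the 21 gene lists and the comparisons were chosen with earlier results of these data known. The named genes are the 12 with most members and up to 3 per list, and the named regions the 10 highest and 3 lowest by lowest level, and those nearest to each limit of the choice. Other names were chosen after their values were seen. Some items are not reported here. The planned sequences around region centres could not be read because no genome was used here, and promoter windows took their place. Python 3.11.15, NumPy 2.4.6, pandas 2.3.3, SciPy 1.17.1 and matplotlib 3.10.9 were used.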

Additional observations from a re-analysis of the deposited data

How the results depend on the processing

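The count of regions missing at day 4 (5396) was 3192 with the better-scored 50% of each list and 2122 with lists cut to the shortest. It stayed within 1.5 times with lists scaled to the day 4 limit (4852), a 200 bp margin (5371), a gene-end window of 2.5 kb (5175), the rule without day 12 (5451) or without day 2 (6495), and, chosen after seeing the data, peaks over more than 50% of the region (4892, with 2172 held). The planned overlap of over 50% of region or peak gives 5396 by construction, since each peak lies inside its region. The share under the day 4 limit (0.0741%) was 5.73% by day 6 alone, 1.59% by day 0 alone, 1.63% with a limit of 8 (the lowest decile of day 4 pileups), 0.282% with the better-scored 50%, and, chosen after seeing the data, 0.704% with each region's local limit and 10.2% by the lowest pileup. The share with a day 4 peak nearby (18.7%) was 6.60% within 2 kb, 62.4% within 20 kb and 7.61% with the better-scored 50%. The causes of these shifts were not tested. Assignment within 20 kb left 128 of 186 regions in gene lists, and 7 of 21 lists moved by over 1.5 times. Each stage had a single list, so leaving out a replicate was not possible. No paired analysis was possible because the lists carry no replicate columns. The AP-1 share of region centres was not run, since no genome sequence was used here.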
